A study of Homo sapiens with 18 samples.

Results

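The genes described here are 10 immediate early genes and their partners. They are the early growth response factors EGR1, EGR2, EGR3 and EGR4, the immediate early response genes IER2, IER3 and IER5, the EGR corepressors NAB1 and NAB2, and the serum response factor SRF. They were picked by symbol, as a family and its partners, with earlier results of these data known, and all 10 were found among the 57500 genes of the count tables. RNA sequencing had been done on THP-1, a human monocytic leukaemia cell line, after stable lentiviral delivery of a short hairpin RNA. The shNT line carried a non-targeting hairpin, the shNR4A2 line a hairpin against NR4A2, and the shNR4A3 line a hairpin against NR4A3, both targets being orphan nuclear receptors that are themselves immediate early genes. Each line was sequenced without stimulation and after 2.5 μg/ml lipopolysaccharide (LPS, a bacterial cell wall component sensed by Toll-like receptor 4) for 2 h, with 3 libraries in each of the 6 groups. Every cell, the shNT controls included, thus carried a lentiviral hairpin, and unmodified THP-1 cells were not among the libraries.

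Each library held between 16171161 and 23929138 counts assigned to genes. The study describes the 3 libraries of a group as independent experiments. Their p-values measure the spread between these libraries of 1 cell line. The identity of the cells was checked on 10 monocyte genes. SPI1, the PU.1 factor of myeloid cells, lay between 532 and 1132 TPM (a transcript level corrected for gene length and library size), and CD14, the LPS coreceptor, lay between 11.6 and 66.7 TPM. Of 17 markers of T, B and NK cells, red cells, epithelium, fibroblasts and endothelium, 13 stayed under 1 TPM in all 18 libraries. PECAM1, an adhesion molecule that monocytes also carry, was the most abundant of them at 114 to 289 TPM. The summed level of the 17 markers ran from 124 TPM in library 3 of the LPS-treated shNT cells to 301 TPM in library 1 of the unstimulated shNR4A2 cells, and its part in the results was not tested.

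The hairpin targets were lower in their own lines. In bulk RNA, fewer cells that express a gene and less RNA per cell cannot be told apart. NR4A2 was at 4.16, 2.83 and 4.08 TPM in unstimulated shNT cells and at 1.82, 1.63 and 2.41 TPM in unstimulated shNR4A2 cells. NR4A3 was at 30.9, 32.3 and 31.9 TPM in LPS-treated shNT cells and at 17.03, 18.2 and 16.7 TPM in LPS-treated shNR4A3 cells. No library of a knockdown group overlapped its shNT group for its own target in these 2 settings. With LPS, NR4A2 fell by 1.52 on the log2 scale in shNR4A2 cells (SE 0.19, adjusted p = 0.00265) and NR4A3 fell by 0.82 in shNR4A3 cells (SE 0.08, adjusted p = 0.000556). These values and those below come from the edgeR quasi-likelihood test with Benjamini-Hochberg adjustment over all genes tested in a comparison, and a gene was called where its adjusted p was under 0.05.

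Immediate early genes are transcribed within minutes of a stimulus from machinery that is already present in the cell. Kinase cascades that end on ERK, p38 and their downstream kinases phosphorylate ternary complex factors such as ELK1, which bind with SRF at the CArG boxes of many immediate early promoters. The EGR proteins are zinc finger transcription factors, and NAB1 and NAB2 bind to EGR1, EGR2 and EGR3 and repress their activity, NAB2 being itself an EGR target in many cells. In monocytes and macrophages, EGR1 and EGR2 are known for their part in differentiation and in the control of inflammatory genes, while IER3 is known as a regulator of cell survival downstream of NF-κB.

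EGR1 (chr5:138465490-138469315, plus strand), EGR4 (chr2:73290929-73293705, minus strand) and IER3 (chr6:30743199-30744554, minus strand) are compact protein-coding genes. EGR2 lies at chr10:62811996-62919900 on the minus strand, a span that includes distant upstream exons. IER2 lies at chr19:13150415-13154908 and IER5 at chr1:181088712-181092899, both on the plus strand. NAB1 lies at chr2:190646746-190692766 and NAB2 at chr12:57088894-57095476, both on the plus strand. SRF lies at chr6:43171299-43181507 on the plus strand. All of these positions are those of the count files, on GRCh38. Whether the counting used strand was not given in the sources used here. NAB2 overlaps STAT6 on the opposite strand, and STAT6 held 3651 to 5773 counts a library, so NAB2 is the member whose count is least certain. The genes that overlap EGR3, IER2, IER3 and NAB1 held at most 19 counts over all 18 libraries.

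Promoter windows of RefSeq (GRCh38.p14) were found for 8 of the 10 genes, and none was used for EGR3 or IER3. The 250 bases before the start were searched on both strands. A site was taken as present for a gene if any of its windows held it (13 windows for the 8 genes). The shares given beside are per single window, so the 2 are not alike. The CArG box, the site of SRF, was present for EGR1, EGR2 and SRF, against 1.16% of 35116 RefSeq windows of the same length, and was not found in the windows of EGR4, IER2, IER5, NAB1 and NAB2. The EGR site GCGNGGGCG was present for EGR1, NAB1, NAB2 and SRF, against 8.42% of the windows. CCGGAA, a form of the ETS site at which ELK1 and its relatives bind, was present for IER2, IER5 and SRF, against 14.5% of the windows. Other forms of the ETS site were not searched. The kappa B site of NF-κB was present for EGR4, NAB1 and SRF, against 5.21%. Each kappa B match lay in a window that overlaps exons. For EGR4 this was its only window, and for NAB1 and SRF a further window, not the SRF window printed below. The single windows of IER2 and NAB2 also overlap exons. The NR4A response element AAAGGTCA was present in none of the 8 genes' windows, against 1.05% of all windows. The cyclic AMP response element TGACGTCA was likewise absent from them, against 1.65% of all windows. A match is a description of letters only, and an absent match says only that these letters are not in the window. The windows of EGR1 and EGR2, which rose with LPS, and of SRF, which did not pass the test, are printed 5′ to 3′ on the strand of the gene, with CArG boxes and EGR sites in capitals. They lie at chr5:138465229-138465478 (plus strand), chr10:62816367-62816616 (minus strand) and chr6:43171019-43171268 (plus strand), and that of EGR2, 1 of its 3 windows, lies inside an intron of longer transcripts.
EGR1: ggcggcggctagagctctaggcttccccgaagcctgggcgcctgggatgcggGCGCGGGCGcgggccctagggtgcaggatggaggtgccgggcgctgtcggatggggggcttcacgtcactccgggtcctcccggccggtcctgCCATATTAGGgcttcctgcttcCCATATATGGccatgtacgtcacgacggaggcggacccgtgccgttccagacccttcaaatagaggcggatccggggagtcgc
EGR2: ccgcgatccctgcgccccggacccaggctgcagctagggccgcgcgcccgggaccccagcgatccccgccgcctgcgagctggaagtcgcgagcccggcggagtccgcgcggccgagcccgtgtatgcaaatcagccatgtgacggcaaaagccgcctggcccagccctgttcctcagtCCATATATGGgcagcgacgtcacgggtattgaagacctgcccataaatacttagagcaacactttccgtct
SRF: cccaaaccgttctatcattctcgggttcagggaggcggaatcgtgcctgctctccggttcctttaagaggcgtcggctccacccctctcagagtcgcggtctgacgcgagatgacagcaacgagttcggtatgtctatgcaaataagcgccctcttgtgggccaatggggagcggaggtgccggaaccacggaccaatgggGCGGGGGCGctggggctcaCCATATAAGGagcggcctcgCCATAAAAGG
EGR1 and SRF each held 2 CArG boxes and EGR2 held 1. The CCATATATGG box was found in both EGR windows, 83 bases before the start of EGR1 and 71 before that of EGR2, counted from the first base of the box.

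The first question was how these genes responded to LPS in the control line. In shNT cells, 8 of the 10 rose, against 11.6% of 15711 genes tested that were called higher. They were the 4 EGR factors, the 3 IER genes and NAB1, and none was called lower. Of 10 heat shock genes, a sign of handling stress, 5 also rose, and their part in this result was not tested. The median log2 fold change of the 10 was 2.17, beside -0.01 for all genes tested. A count of members called was also made in shNR4A2 cells and in shNR4A3 cells, where it was again 8, all higher, against 9.23% and 13.1% of genes called higher. All 8 stayed called when any 1 library was left out in each line.

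EGR1, the family member with the highest level, was at 22.6, 22.7 and 17.3 TPM in unstimulated shNT cells and at 155, 209 and 118 TPM after LPS. The lowest treated library lay well above the highest untreated one. The log2 fold change was 3.15 (SE 0.18, adjusted p = 1.03e-08). In shNR4A2 cells EGR1 went from 27.7, 23.6 and 15.99 to 193, 221 and 90.2 TPM, a log2 fold change of 3.16 (SE 0.29, adjusted p = 7.37e-06). In shNR4A3 cells it went from 10.8, 16.004 and 10.3 to 118, 160.4 and 86.7 TPM, a log2 fold change of 3.52 (SE 0.21, adjusted p = 4.74e-07). Library 3 was the lowest in all 3 treated groups, and the treated groups overlapped one another.

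EGR2, which carries zinc fingers close to those of EGR1, had the largest fitted log2 fold change of the 10 in each line, although in shNR4A3 cells that of EGR3 was within its error. It was low without LPS, at 1.00, 1.07 and 0.62 TPM in shNT cells (21, 19 and 12 counts), and reached 82.1, 88.6 and 80.9 TPM with LPS. The log2 fold change was 6.76 (SE 0.16, adjusted p = 8.84e-13), or 108-fold. In shNR4A2 cells, 1.84, 1.71 and 1.69 TPM became 136, 136 and 136 TPM, a log2 fold change of 6.54 (SE 0.15, adjusted p = 1.45e-10). In shNR4A3 cells, 1.89, 1.47 and 1.19 TPM became 112, 105 and 102 TPM, a log2 fold change of 6.35 (SE 0.16, adjusted p = 7.49e-10). In TPM the treated libraries of one group lay close together, with a coefficient of variation of 4.94% in shNT, 0.311% in shNR4A2 and 4.7996% in shNR4A3 cells. For EGR1 the same figure was 28.5%, 40.9% and 30.5%. The near identity of EGR2 in treated shNR4A2 cells held on the TPM scale only. In log2 CPM (counts scaled to library size) these libraries lay 0.066, -0.103 and 0.037 from their mean.

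EGR3, an EGR family member that NAB proteins also bind, was at 1.12, 2.10 and 1.45 TPM in shNT cells and at 39.8, 54.9 and 27.3 TPM with LPS. The groups did not overlap, and the log2 fold change was 4.93 (SE 0.26, adjusted p = 4.16e-09). In shNR4A3 cells it went from 0.41, 1.35 and 0.25 TPM (10, 29 and 6 counts) to 47.7, 56.7 and 26.2 TPM, a log2 fold change of 6.29 (SE 0.41, adjusted p = 9.05e-07). In shNR4A2 cells it went from 0.89, 1.45 and 0.78 to 30.5, 40.4 and 15.1 TPM, a log2 fold change of 5.05 (SE 0.35, adjusted p = 5.17e-07). EGR4, the least abundant of the 4, had 10 to 30 counts in an untreated library. It was at 1.55, 1.49 and 2.40 TPM in shNT cells and at 11.3, 12.2 and 7.17 TPM with LPS, with a log2 fold change of 2.70 (SE 0.25, adjusted p = 2.54e-06). With LPS it was at 10.8, 17.9 and 8.13 TPM in shNR4A2 cells and at 11.3, 12.1 and 6.34 TPM in shNR4A3 cells, above every untreated library of its line.

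**Figure D1:**
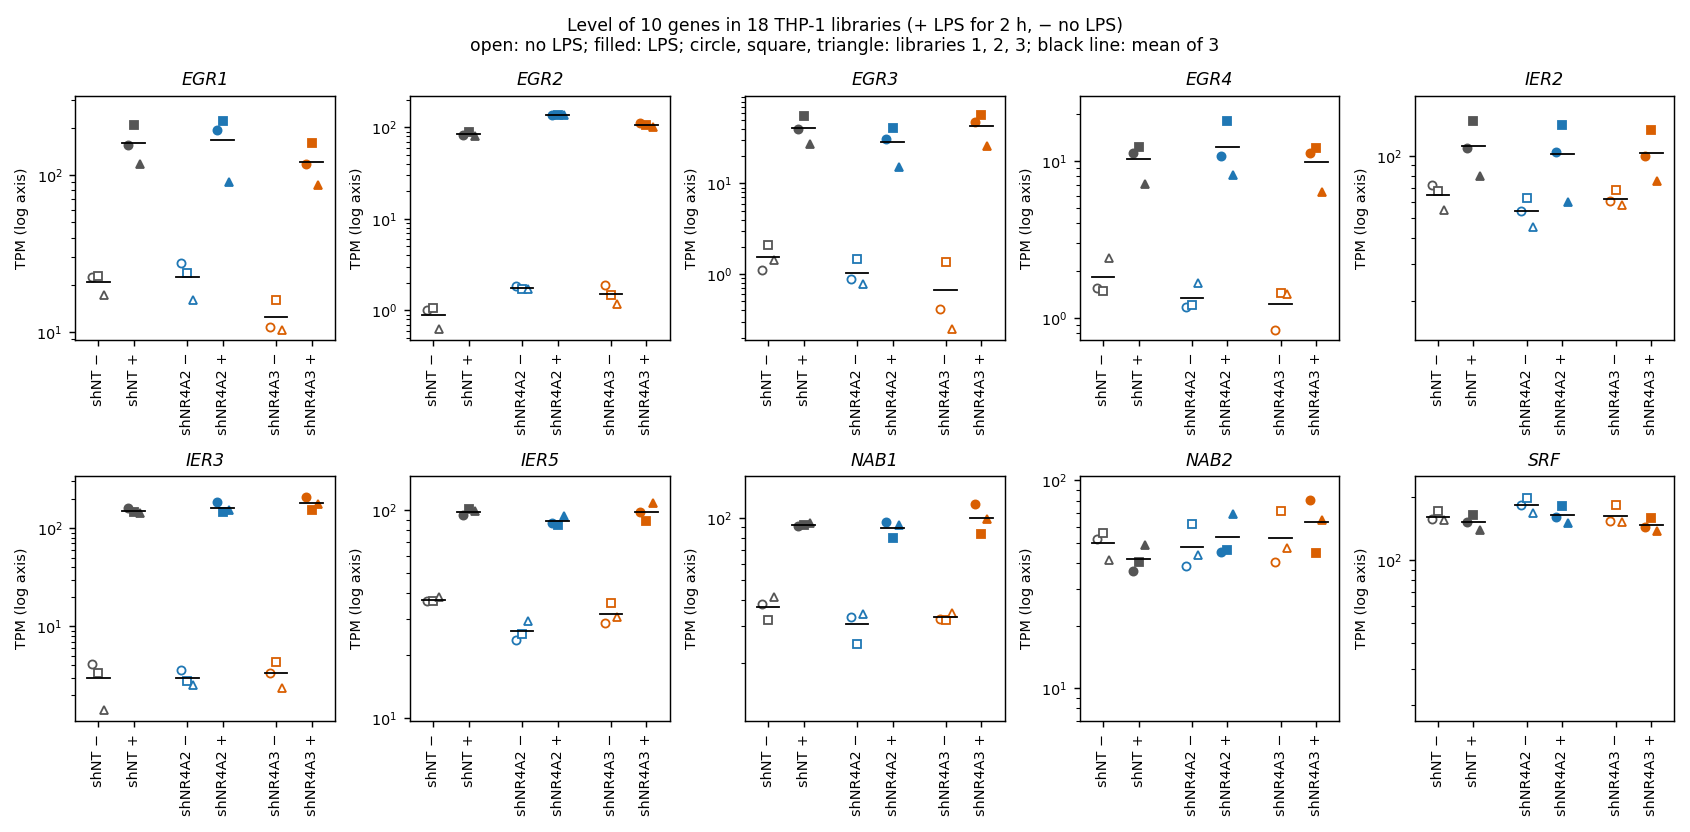
Level of each of the 10 genes in TPM (vertical, log axis) in the 18 libraries, by line and treatment (horizontal), with open symbols without LPS, filled symbols with LPS, and a black line at the mean of 3. EGR2 is tight within each LPS group (136, 136 and 136 TPM in shNR4A2), EGR1 is spread (193, 221 and 90.2 TPM), and NAB2 and SRF overlap between treated and untreated libraries.

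The make-up of the EGR transcripts shifted with LPS. The summed level of EGR1 to EGR4 in shNT cells was 25.1 ± 2.94 TPM (SD, n = 3) without LPS and 296 ± 66.0 TPM with LPS. EGR1 supplied 82.8% ± 3.25 of that sum without LPS and 53.9% ± 3.38 with LPS, while EGR2 supplied 3.52% ± 0.596 and 29.1% ± 5.22. After LPS the share of EGR2 was 41.3% ± 11.6 in shNR4A2 and 38.8% ± 7.28 in shNR4A3 cells. Library 3 of the treated shNR4A2 cells and library 3 of the treated shNR4A3 cells were the treated libraries in which EGR2 exceeded EGR1. The EGR2 to EGR1 ratio was 1.504 in the first, beside 0.70 and 0.61 in the other two of its group, and 1.17 in the second, beside 0.95 and 0.66. Since shares of one sum depend on each other, no test was made of them.

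**Figure D2:**
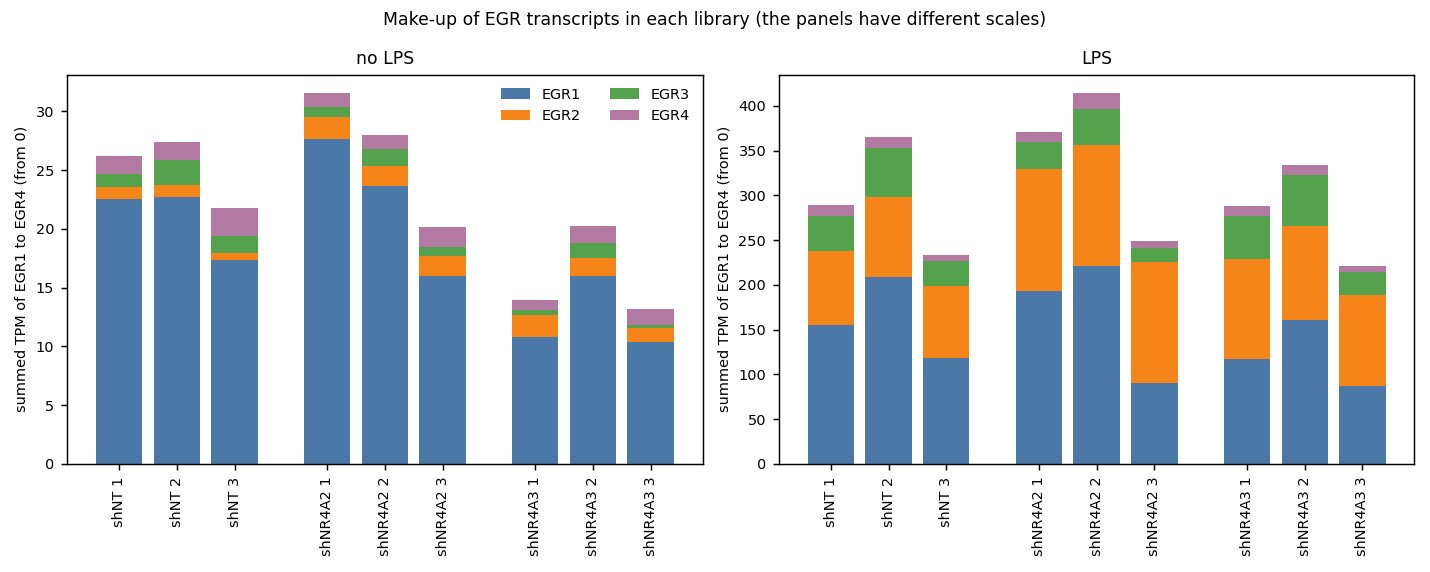
Summed TPM of EGR1, EGR2, EGR3 and EGR4 in each library (vertical, from 0), stacked by gene, with libraries 1, 2 and 3 of each line on the horizontal axis and a separate scale without LPS (left) and with LPS (right). EGR1 fills most of each bar without LPS (82.8% in shNT), and EGR2 takes a share of 29.1% in shNT, 41.3% in shNR4A2 and 38.8% in shNR4A3 cells with LPS.

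Among the IER genes, IER3 rose most. It was at 4.14, 3.38 and 1.40 TPM in unstimulated shNT cells (32, 22 and 10 counts) and at 159, 145 and 143 TPM with LPS, a log2 fold change of 5.85 (SE 0.21, adjusted p = 7.64e-11). In shNR4A2 cells it went from 3.63, 2.81 and 2.55 to 184, 145 and 154 TPM, and in shNR4A3 cells from 3.38, 4.34 and 2.35 to 209.6, 153 and 175 TPM. The 9 treated libraries ran from 143 to 209.6 TPM and the 9 untreated ones from 1.40 to 4.34 TPM. IER5, a nuclear protein linked to heat shock factor activity, was already present without LPS, at 36.4, 36.4 and 38.1 TPM in shNT cells. It reached 94.8, 101 and 99.0 TPM, a log2 fold change of 1.63 (SE 0.08, adjusted p = 3.25e-09). In shNR4A2 cells IER5 went from 23.6, 25.4 and 29.3 to 87.0, 84.9 and 93.3 TPM, and in shNR4A3 cells from 28.6, 35.9 and 30.7 to 97.4, 88.4 and 108 TPM. IER2, an early response gene that is also induced by growth factors, responded least of the 8 genes called. It was at 72.2, 67.8 and 55.0 TPM without LPS and at 108, 147 and 79.6 TPM with LPS in shNT cells, a log2 fold change of 0.98 (SE 0.17, adjusted p = 0.000664). In shNR4A2 cells the lowest treated library of IER2 (60.2 TPM) lay below the highest untreated one (62.4 TPM), so these groups overlapped although the gene was called (adjusted p = 0.00324).

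NAB1 and NAB2 went apart. NAB1 was at 38.3, 32.1 and 41.8 TPM in unstimulated shNT cells and at 91.2, 91.8 and 93.8 TPM with LPS, a log2 fold change of 1.53 (SE 0.09, adjusted p = 2.65e-08). NAB2 was at 52.4, 56.0 and 41.3 TPM without LPS and at 36.8, 40.5 and 48.8 TPM with LPS, groups that overlapped, and its log2 fold change was -0.03 (SE 0.15, adjusted p = 0.911). For NAB2 the interval of that difference, at 95% under a normal approximation and used in the same way below, ran from -0.32 to 0.26. In shNR4A2 and shNR4A3 cells the log2 fold change of NAB2 was 0.43 (SE 0.21, adjusted p = 0.184) and 0.51 (SE 0.23, adjusted p = 0.122). In shNR4A3 it was called when library 2 of the untreated or of the treated cells was left out (adjusted p = 0.0493 and 0.00504). The ratio of NAB2 to NAB1 levels was 1.37 ± 0.378 without LPS and 0.455 ± 0.0593 with LPS in shNT cells. In all 9 untreated libraries but 1 NAB2 exceeded NAB1, the exception being library 3 of shNT with a ratio of 0.988, whereas in all 9 treated libraries it lay below NAB1. The summed EGR level was 0.287 ± 0.0239 times the summed NAB level in unstimulated shNT cells and 2.22 ± 0.562 times with LPS.

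SRF, the factor that binds CArG boxes, had the highest level of the 10 without LPS, at 158, 172 and 155 TPM in shNT cells. It was at 152, 165 and 139.7 TPM with LPS. The groups overlapped, the log2 fold change was 0.13 (SE 0.09, adjusted p = 0.321), and the interval ran from -0.04 to 0.30. SRF was not called in shNR4A2 cells (0.10, SE 0.12, adjusted p = 0.594) or in shNR4A3 cells (0.08, SE 0.09, adjusted p = 0.534). Its sign depends on the scale, since mean TPM of SRF was lower with LPS in each line and the fitted fold change was higher. On the TPM scale the median of all genes tested was 0.23 lower with LPS in log2 units in shNT, 0.28 lower in shNR4A2 and 0.24 lower in shNR4A3 cells, a shift that the normalisation of the test removes.

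**Figure D3:**
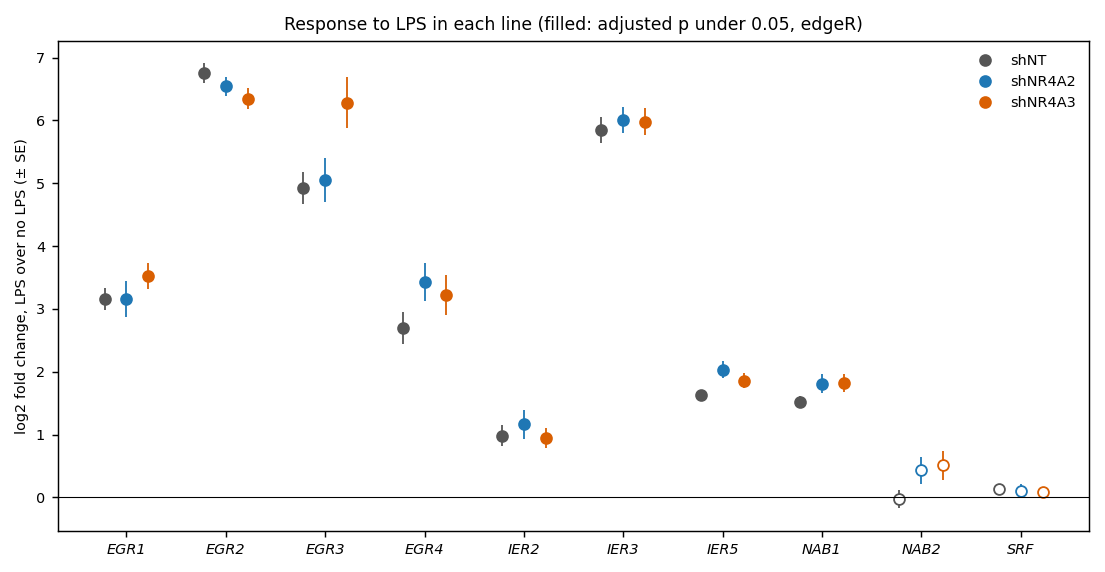
Log2 fold change of LPS-treated over untreated libraries (vertical, ± SE) for each of the 10 genes (horizontal) in shNT (grey), shNR4A2 (blue) and shNR4A3 (orange) cells, with 3 libraries a group and filled points where the adjusted p was under 0.05. The 8 called genes run from 0.98 for IER2 to 6.76 for EGR2 in shNT cells, and NAB2 and SRF are open in each line.

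The surrounding pathway was read from lists of textbook genes. Of 37 other immediate early genes, 36 were tested in shNT cells, of which 31 rose and 3 fell with LPS, with a median log2 fold change of 1.35. Of all genes tested, 11.6% were called higher and 24.9% were called in either direction. CCN2 (CTGF in the annotation used), a secreted matrix protein, rose from 18.8 ± 1.54 to 1634 ± 261 TPM (log2 fold change 6.66, SE 0.14, adjusted p = 4.2e-13). PTGS2, the inducible cyclooxygenase, rose from 1.84 ± 0.288 to 110.2 ± 27.9 TPM. MYC fell from 407 ± 37.0 to 52.3 ± 6.33 TPM (adjusted p = 2.06e-10) and IER5L, a paralogue of IER5, fell from 15.4 ± 3.10 to 3.73 ± 0.636 TPM, in the opposite direction to IER5 itself. Not all members of the class thus moved with the EGR genes.

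Upstream genes were also read. Of 14 kinases upstream of EGR1 and SRF, 1 rose and 3 fell with LPS in shNT cells, with a median of 0.11, and 24.9% of all genes tested were called in either direction, so this count was near the background. MAP3K8, the kinase that links LPS sensing to ERK, rose from 8.65 ± 1.30 to 78.1 ± 21.5 TPM (log2 fold change 3.40, SE 0.19, adjusted p = 1.22e-08). MAPK14, the p38α kinase, fell by 0.55 on the log2 scale (SE 0.10, adjusted p = 0.000772) and the ribosomal S6 kinase RPS6KA4, also called MSK2, fell by 0.33 (SE 0.10, adjusted p = 0.0323). Of 5 SRF cofactors tested out of 6, MRTFA rose by 0.43 (SE 0.08, adjusted p = 0.00171), ELK3 fell by 0.76 (SE 0.14, adjusted p = 0.00124), and the median was 0.02. Of 15 cytoskeletal targets of SRF and MRTF tested out of 16, 1 was called with LPS in shNT cells. That was WDR1, an actin disassembly factor, with a log2 fold change of 0.23 (SE 0.08, adjusted p = 0.0437), and the list's median was 0.00.

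Of 16 known targets of EGR factors, 13 were tested in shNT cells and 7 rose with LPS, against 11.6% of all genes tested that were called higher, with a median log2 fold change of 0.60 and none lower. ICAM1, an adhesion molecule, rose from 6.43 ± 1.66 to 282 ± 46.5 TPM (log2 fold change 5.66, SE 0.18, adjusted p = 2.09e-11). TNF, the cytokine, rose from 65.3 ± 11.8 to 2118 ± 136 TPM (log2 fold change 5.23, SE 0.15, adjusted p = 4.48e-12). Both genes are also known NF-κB targets.

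The second question was how the 10 genes differed between the knockdown lines and shNT cells. Without LPS, 1 of the 10 was called in shNR4A2 against shNT cells, against 6.45% of 15800 genes tested and thus near the background. That gene was IER5. It was at 23.6, 25.4 and 29.3 TPM in shNR4A2 and at 36.4, 36.4 and 38.1 TPM in shNT cells, without overlap, and was lower by 0.50 on the log2 scale (a log2 fold change of -0.50, SE 0.11, adjusted p = 0.0196). It was no longer called when library 1, 2 or 3 of shNT or library 1 of shNR4A2 was left out (adjusted p = 0.0639 to 0.0735). EGR2 was at 1.84, 1.71 and 1.69 TPM beside 1.00, 1.07 and 0.62 TPM, also without overlap (2 of the 10 did not overlap, against 25.7% of genes), and was not called (log2 fold change 0.96, SE 0.30, adjusted p = 0.0829). Same-numbered libraries deviated together in this comparison, and with the replicate number as a block 5 of the 10 were called, against 23.6% of genes. These were IER5, EGR2 (0.97, adjusted p = 0.0284), IER2 (-0.27, adjusted p = 0.019), NAB1 (-0.28, adjusted p = 0.0148) and SRF (0.19, adjusted p = 0.0268).

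In shNR4A3 against shNT cells without LPS, 1 of the 10 was called, against 7.23% of 15322 genes. EGR1 was at 10.8, 16.004 and 10.3 TPM in shNR4A3 and at 22.6, 22.7 and 17.3 TPM in shNT cells, without overlap. Its log2 fold change was -0.72 (SE 0.17, adjusted p = 0.0246). It lost its call without library 1 or 2 of shNT or library 1 or 3 of shNR4A3 (adjusted p = 0.0728 to 0.107), and where all 18 libraries shared 1 estimate of the spread (adjusted p = 0.218). In that last fit EGR2 was called in its place, in the opposite direction (adjusted p = 0.0414), while on the 6 libraries alone its log2 fold change was 0.81 (SE 0.33, adjusted p = 0.185). EGR1 was 1 of 4 members whose groups did not overlap, against 24.3% of genes. The others were EGR2 (1.19 to 1.89 TPM in shNR4A3, 0.62 to 1.07 in shNT), which was higher, and EGR4 (0.84 to 1.43 TPM, 1.49 to 2.40 in shNT) and IER5 (28.6 to 35.9 TPM, 36.4 to 38.1 in shNT), which were lower, and none of these 3 was called. With the replicate block 2 of the 10 were called, EGR1 and EGR3 (-1.30, adjusted p = 0.031), against 14.8% of genes. EGR3 in that comparison rests on 10, 29 and 6 counts in shNR4A3 libraries, and leaving out library 2 of shNR4A3 brought it under the threshold also without the block (adjusted p = 0.0157).

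With LPS, EGR2 was the 1 gene of the 10 called in either knockdown line against shNT. The background was 6.96% of 15590 genes in shNR4A2 and 6.45% of 15578 genes in shNR4A3, so 1 of 10 is again near it. EGR2 was at 136, 136 and 136 TPM in shNR4A2, at 112, 105 and 102 TPM in shNR4A3 and at 82.1, 88.6 and 80.9 TPM in shNT cells. No pair of these groups overlapped, which was so for 27.2% of genes for shNR4A2 against shNT, 27.9% for shNR4A3 against shNT and 21.1% for shNR4A2 against shNR4A3. IER5 also did not overlap between shNR4A2 (84.9 to 93.3 TPM) and shNT (94.8 to 101 TPM), and was not called (adjusted p = 0.604). Against shNT, the log2 fold change was 0.75 in shNR4A2 (SE 0.08, adjusted p = 0.00145) and 0.40 in shNR4A3 (SE 0.08, adjusted p = 0.0203), both comparisons resting on the same 3 shNT libraries. The call in shNR4A2 held without any 1 library (adjusted p up to 0.0126). In shNR4A3 it held only without library 2 of shNR4A3 (adjusted p = 0.00946) and was otherwise between 0.0623 and 0.0775.

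The replicate block raised the counts with LPS to 3 of 10 in shNR4A2 and 4 of 10 in shNR4A3, against 28.1% and 21.8% of genes. In shNR4A2 it added EGR3 (-0.49, adjusted p = 4.98e-06) and NAB2 (0.39, adjusted p = 0.000183). That fit had 2 residual degrees of freedom beside 48.8 prior ones, so its p-values rest mostly on a spread shared over genes. Without the block, neither was called with any 1 library left out (adjusted p = 0.175 to 0.798 for EGR3 and 0.0992 to 0.605 for NAB2). In shNR4A3 the block added EGR1 (-0.35, adjusted p = 0.000833), IER3 (0.32, adjusted p = 0.00893) and NAB2 (0.62, adjusted p = 0.00641). NAB2 with LPS was at 45.1, 46.0 and 69.2 TPM in shNR4A2, at 80.5, 44.8 and 64.4 TPM in shNR4A3 and at 36.8, 40.5 and 48.8 TPM in shNT cells. Each knockdown group overlapped shNT, and without the block neither difference was called (adjusted p = 0.241 and 0.101). Without library 2 of shNR4A3 the call was reached there by NAB2 (adjusted p = 0.00355) and IER3 (adjusted p = 0.0225), and DESeq2 called NAB2 (adjusted p = 0.0242) beside EGR2 in shNR4A3, against 9.02% of genes.

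**Figure D4:**
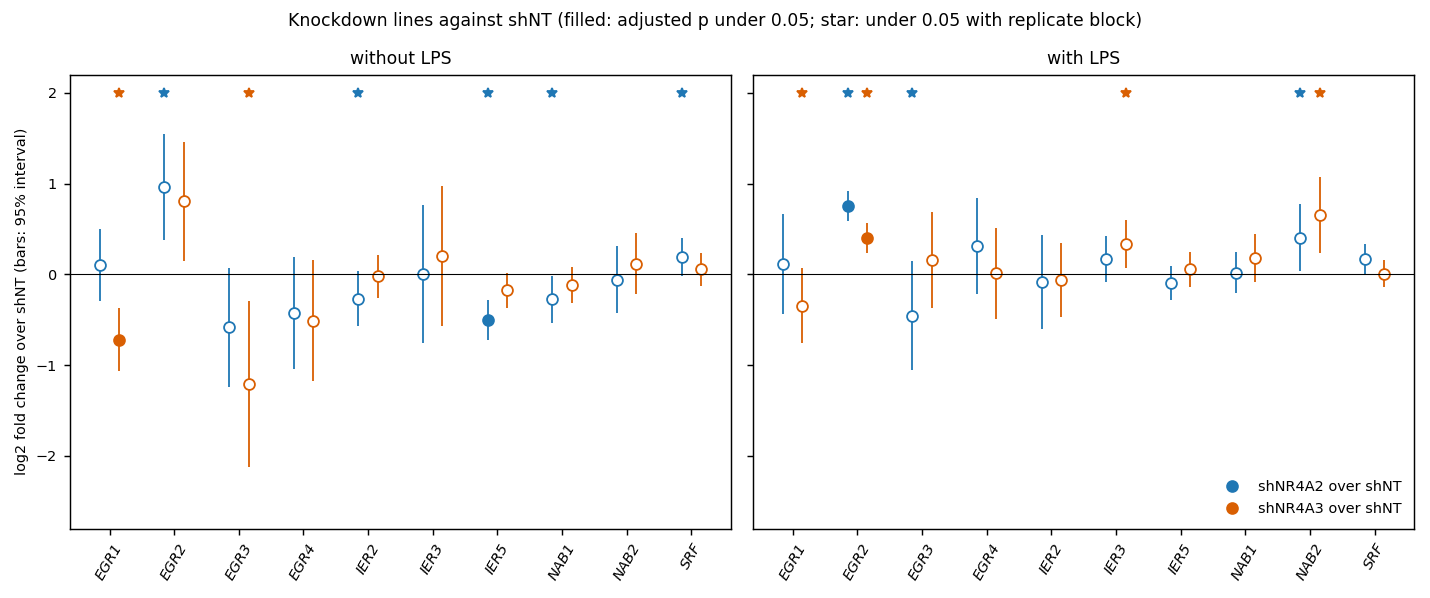
Log2 fold change over shNT (vertical, bars for the 95% interval) of the 10 genes (horizontal) in shNR4A2 (blue) and shNR4A3 (orange) cells, without LPS (left) and with LPS (right), with 3 libraries a group, filled points where the adjusted p was under 0.05, and stars where it was under 0.05 with the replicate block. The filled points are IER5 in shNR4A2 (-0.50) and EGR1 in shNR4A3 (-0.72) without LPS, and EGR2 in both lines with LPS (0.75 and 0.40).

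Between the 2 knockdown lines, none of the 10 was called by edgeR without LPS, against 3.08% of 15584 genes, or with LPS, against 2.33% of 15539 genes. EGR1 without LPS was at 27.7, 23.6 and 15.99 TPM in shNR4A2 and at 10.8, 16.004 and 10.3 TPM in shNR4A3 cells. The lowest shNR4A2 library lay just under the highest shNR4A3 one, with a log2 fold change of 0.82 (SE 0.21, adjusted p = 0.0592). DESeq2 called it (adjusted p = 0.0099), as did the replicate block (adjusted p = 0.00174). EdgeR also called it when library 3 of shNR4A2 (adjusted p = 0.00968) or library 2 of shNR4A3 (adjusted p = 0.025) was left out. With LPS, EGR2 was 0.35 higher in shNR4A2 (SE 0.09, adjusted p = 0.0944), with an interval from 0.17 to 0.54, and was called with the replicate block (adjusted p = 0.000452). The block called 2 of the 10 without LPS, EGR1 and IER5, against 11.6% of genes, and 4 with LPS, EGR1, EGR2, EGR3 and SRF, against 23.6%. Without the block, 2 of the 10 had an unadjusted p under 0.05 by edgeR without LPS, EGR1 (interval 0.41 to 1.24) and IER5 (interval -0.57 to -0.08), and EGR2 did with LPS. Of all genes tested, 2260 of 15584 had such a value without LPS and 2773 of 15539 with LPS, so these counts were near the background. DESeq2 called 1 of the 10 without LPS, against 4.21% of genes, and 0 with LPS, against 4.18%.

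The size of the LPS response itself was then compared between lines. None of the 10 was called, and edgeR called none of the 16674, 16428 and 16447 genes tested (0%) for shNR4A2 against shNT, shNR4A3 against shNT and shNR4A2 against shNR4A3. Unadjusted p-values under 0.05 were had by 365, 824 and 396 genes, among them 1, 0 and 0 of the 10, and DESeq2 called 2, 10 and 1 genes (0.00454%, 0.101% and 0.0023% of those it tested), none of them a member. EGR4 had no adjusted p from DESeq2 in shNR4A3 against shNT, so 9 of the 10 were tested there. The unadjusted value under 0.05 was that of IER5 in shNR4A2 against shNT (difference of response 0.41, SE 0.14), with an interval from 0.14 to 0.68. EGR3 in shNR4A3 against shNT had the largest difference among the 10, at 1.35 (SE 0.64, adjusted p = 0.985), with an interval from 0.11 to 2.60. That interval leaves out 0 although the unadjusted p of the test was 0.050036, since the normal approximation is narrower than the test at these degrees of freedom. EGR2, which was higher with LPS in both knockdown lines, had a difference of response of -0.21 in shNR4A2 (SE 0.22, interval -0.65 to 0.23) and of -0.41 in shNR4A3 (SE 0.27, interval -0.93 to 0.11). These intervals include 0.

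Other genes of the pathway differed between lines. Among the 36 other immediate early genes tested in each of the 4 comparisons with shNT, the counts called were 8 higher and 2 lower in shNR4A2 without LPS, 4 higher and 1 lower with LPS, 5 higher and 1 lower in shNR4A3 without LPS, and 6 higher and 1 lower with LPS. In the same order, 6.45%, 6.96%, 7.23% and 6.45% of all genes were called in either direction. CCN2 was lower in all 4, at 7.57 TPM in shNR4A2 and 4.75 TPM in shNR4A3 without LPS beside 18.8 TPM in shNT cells (log2 fold changes -1.31 and -1.95). With LPS its log2 fold change was -1.57 in shNR4A2 (SE 0.22, adjusted p = 0.00443) and -1.28 in shNR4A3 (SE 0.14, adjusted p = 0.000849). SGK1, a serum-induced kinase gene, was higher in shNR4A3 by 1.35 without LPS (SE 0.23, adjusted p = 0.00264) and by 1.63 with LPS (SE 0.27, adjusted p = 0.00756). It was also higher in shNR4A2, by 1.09 without LPS and 1.23 with LPS.

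Among the EGR targets, F3, the tissue factor gene and a classical EGR1 target, was lower without LPS by 1.03 on the log2 scale in shNR4A3 cells (a log2 fold change of -1.03, SE 0.12, adjusted p = 0.000178), the line in which EGR1 was lower, with 91.0 TPM beside 192 TPM in shNT cells. It was at 139 TPM in shNR4A2 cells (log2 fold change -0.46, adjusted p = 0.0445), where EGR1 was not called. The EGR1 call in shNR4A3 was itself lost with some single libraries left out, and the part of EGR1 in the F3 levels was not tested. Of 11 targets tested without LPS, 2 were higher and 1 lower in shNR4A2, and 0 were higher and 2 lower in shNR4A3, against 6.45% and 7.23% of all genes called in either direction. The higher ones in shNR4A2 were PDGFA, a growth factor gene (log2 fold change 1.19, SE 0.16, adjusted p = 0.00159), and CD44, a hyaluronan receptor (0.59, SE 0.11, adjusted p = 0.00977). TNF was also lower without LPS in shNR4A3 cells (-1.02, SE 0.21, adjusted p = 0.0097). With LPS, 4 of 13 targets tested were called in shNR4A2 and 3 of 13 in shNR4A3, all higher, against 6.96% and 6.45% of all genes. PDGFB, a growth factor gene, was at 5.28 TPM in shNR4A2 and 1.02 TPM in shNT cells (log2 fold change 2.43, SE 0.22, adjusted p = 0.000507). FLT1, a receptor for VEGF, was at 3.12 TPM in shNR4A3 and 0.91 TPM in shNT cells (log2 fold change 1.85, SE 0.32, adjusted p = 0.00986). Of the SRF cofactors none was called in any comparison between lines by edgeR with or without the block except 1 with the block in shNR4A2 against shNR4A3 with LPS. Of the 14 kinases, 0 were called in shNR4A2 without LPS, 2 with LPS, 1 in shNR4A3 without LPS and 1 with LPS, all higher, against 6.45%, 6.96%, 7.23% and 6.45% of all genes called in either direction. RPS6KA4 was higher in shNR4A3, by 0.80 without LPS (adjusted p = 0.000825) and 0.75 with LPS (adjusted p = 0.00155), and in shNR4A2 with LPS by 0.56 (adjusted p = 0.0136), where RPS6KA1, another ribosomal S6 kinase, was the other one called (0.33, adjusted p = 0.0485). Of the 15 cytoskeletal targets tested, 1, 3, 1 and 1 were called in the same order, all higher. FHL2, an SRF coregulator, was higher in shNR4A2 by 0.88 without LPS (adjusted p = 0.00597) and 0.96 with LPS (adjusted p = 0.0084). MYL9, a myosin light chain, was 0.48 higher in shNR4A2 with LPS (adjusted p = 0.0374). CFL1, the actin-severing cofilin, was higher in shNR4A3 by 0.35 without LPS (adjusted p = 0.0214) and 0.32 with LPS (adjusted p = 0.0399), and in shNR4A2 with LPS by 0.41 (adjusted p = 0.0326).

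The spread between libraries was itself shared by some of the genes. In TPM, EGR1 and IER2 were lowest in library 3 in 6 of 6 groups, and EGR2 and EGR3 each in 5 of 6. SRF was highest in library 2 and lowest in library 3 in 6 of 6 groups, over a far smaller range. With each library taken as its deviation from its group mean in log2 CPM (counts scaled to library size), Pearson's r over the 18 libraries was 0.927 between EGR1 and IER2, 0.768 between EGR1 and EGR3, and 0.786 between EGR1 and SRF. In size, the deviations of EGR2 went little with those of EGR1 (r = 0.212) and most nearly with those of IER3 (r = 0.805). IER5 deviated in the opposite direction to EGR1 (r = -0.565) and to IER2 (r = -0.619), and so did NAB1 to EGR1 (r = -0.429) and to SRF (r = -0.581). These 18 deviations share library depth and normalisation and hold 12 free values, and are given as a description.

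The summed level of the 10 heat shock genes was lowest in library 2 in 6 of 6 groups and highest in library 3 in 5 of 6. Without LPS it was 3483, 3204 and 3591 TPM in shNT, 3602, 2927 and 3859 TPM in shNR4A2 and 3985, 3288 and 3941 TPM in shNR4A3 cells. With LPS it was 3740, 3560 and 4513 TPM in shNT, 3885, 3294 and 4587 TPM in shNR4A2 and 4361, 3645 and 4735 TPM in shNR4A3 cells. The genes called with LPS were all higher, 5 in shNT and 3 in each knockdown line. DNAJA1, a chaperone partner of HSP70, had the largest change in shNT cells (log2 fold change 0.96, SE 0.12, adjusted p = 4.7e-05), followed by HSPA1B, an inducible HSP70 gene (0.85, SE 0.15, adjusted p = 0.00104), and both were also called in shNR4A2 and shNR4A3 cells. In the 3 treated groups EGR1 and IER2 were highest in library 2, where the sum was lowest, and lowest in library 3, where it was highest. Without LPS this order did not hold throughout. There EGR1 was highest in library 1 of shNR4A2 (27.7 TPM), IER2 in library 1 of shNT (72.2 TPM), and the sum in library 1 of shNR4A3 cells. The share of counts on mitochondrial genes ranged from 1.05% to 2.19%, the highest value being that of library 3 of the treated shNR4A2 cells, where EGR3 (15.1 TPM) and IER2 (60.2 TPM) were each at their lowest among the treated libraries and EGR1 (90.2 TPM) was below all but library 3 of the treated shNR4A3 cells. The part of these 2 measures in the EGR and IER levels was not tested.

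**Figure D5:**
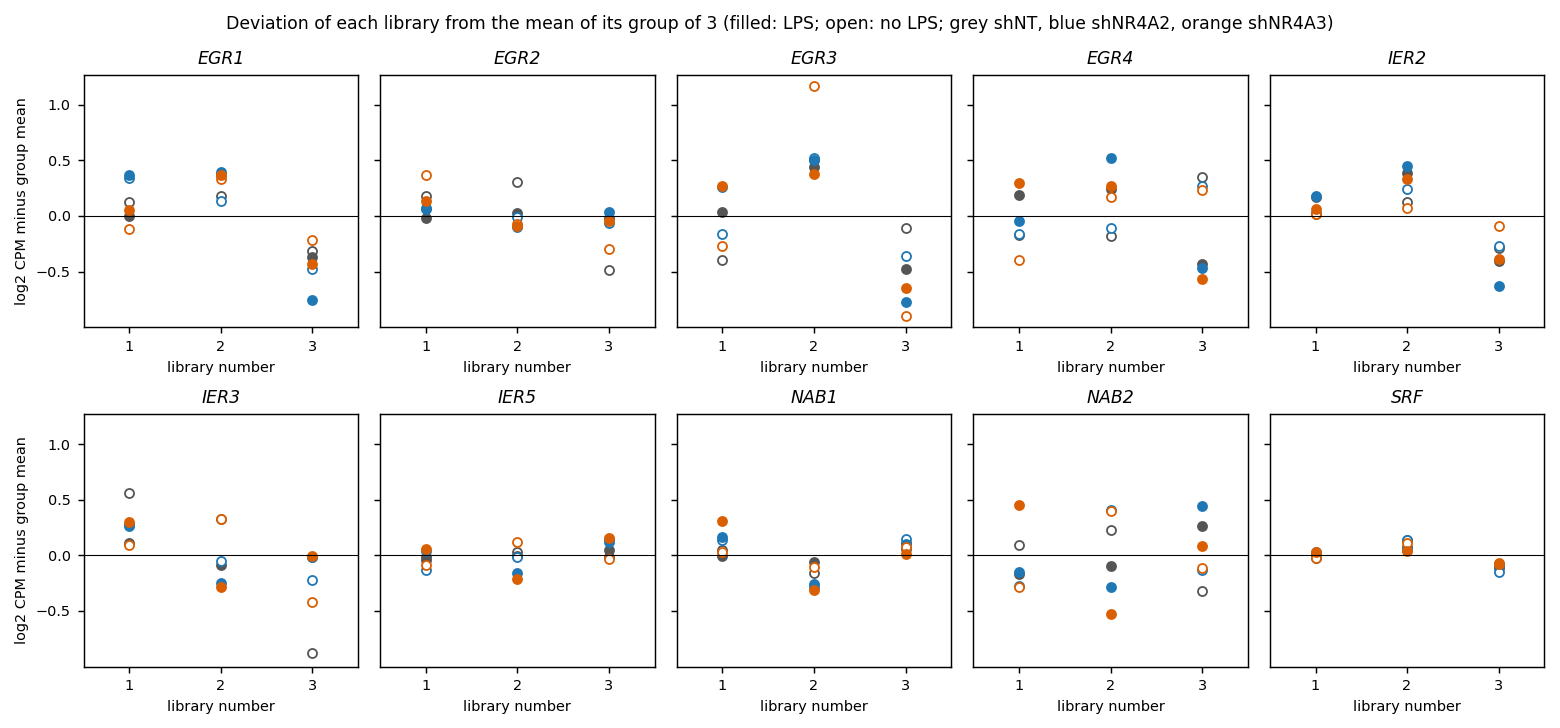
Deviation of each library from the mean of its group of 3, in log2 CPM (vertical), by library number (horizontal) for each of the 10 genes, filled with LPS and open without, in grey for shNT, blue for shNR4A2 and orange for shNR4A3. In the panels of EGR1 and IER2 the 6 points of library 3 lie below 0, those of SRF do so over a smaller range, and EGR2 with LPS stays near 0 in each library number.

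The genes whose pattern over all 18 libraries was most like each member were found among 12049 genes with a mean count of at least 50, by Pearson's r of log2 CPM. For EGR1 they were ATF3 (r = 0.986), DUSP8 (0.985) and LINC01686 (0.984). For EGR2 they were BTG2 (0.997), CXCL1 (0.995) and NFKBIZ (0.995), and for IER3 they were CXCL1, CXCL8 and CCL4L2, each at 0.996 or 0.997. EGR3 was nearest to BMP2 (0.985) and CCN2 (0.981), and EGR4 to ZC3H12C (0.983), ARRDC3 (0.981) and IL1A (0.980). IER5 was nearest to C3AR1 (0.991), NAB1 to NBPF19 (0.994), and IER2 to SIN3A (0.946) and JUND (0.939). For NAB2 and SRF, which did not follow LPS, the highest r was lower, at 0.810 with NUDT1 and 0.893 with SBNO2. Since LPS splits the libraries into 2 sets of 9, these values mostly measure a shared difference between treated and untreated cells. Over the deviations from the group means, EGR1 was nearest to ATP10A (0.960) and FLRT1 (0.951), EGR2 to KAT2A (0.928), IER2 to PIGBOS1 (0.961) and SRF to GTPBP6 (0.948).

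The order of the 6 groups differed between members. EGR2 ran from treated shNR4A2 (136 ± 0.423 TPM) through treated shNR4A3 (106 ± 5.10 TPM) to treated shNT (83.9 ± 4.14 TPM), each apart from the next, and then unstimulated shNR4A2, shNR4A3 and shNT (1.75 ± 0.0784, 1.52 ± 0.354 and 0.897 ± 0.244 TPM), of which the first pair overlapped. EGR1 ran from treated shNR4A2 (168 ± 68.8 TPM) and shNT (161 ± 45.8 TPM) to shNR4A3 (122 ± 37.0 TPM), which overlapped in turn, and ended with unstimulated shNR4A3 (12.4 ± 3.15 TPM), apart from unstimulated shNT (20.9 ± 3.06 TPM). EGR3 was highest in treated shNR4A3 (43.5 ± 15.7 TPM) and lowest in unstimulated shNR4A3 cells (0.669 ± 0.596 TPM). For IER2, NAB2 and SRF every group overlapped the next in order.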

How the data were processed

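RNA was polyA-selected and sequenced as read pairs. Per the labels, the submitters' processing notes name Trimmomatic 0.36 (a read trimmer), STAR 2.5.2b (an aligner), featureCounts of Subread 1.5.2 (a read counter) and the GRCh38 build, with no role or order given. The deposited values are raw counts per gene with the gene length used by the counter. The role of strand in the counting was not given in the sources used here.

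From the counts, TPM were computed with the deposited lengths, and symbols were taken from GENCODE 29. Each comparison was fitted on its own 6 libraries (12 for differences of response) with edgeR 4.0.16 in R 4.3.3, using TMM normalisation, the default filter on low counts and quasi-likelihood F tests adjusted by Benjamini-Hochberg over all genes tested. SE is the size of the log2 fold change over the square root of F, and intervals are 95% intervals under a normal approximation. All 10 genes passed the filter in every comparison. The alternatives were size factors of DESeq2 in edgeR, no filter, DESeq2 1.42.0 (the study's own tool), a block for library number, 1 fit of all 18 libraries, each library left out, and TPM against CPM. The code was tested on simulated counts.

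Libraries were numbered by the labels. Their deviations from the group means correlated over all genes by 0.159 to 0.533 for every same-numbered pair in 8 of the 9 comparisons of groups, so the numbers were taken to pair the samples there, from the data and not from a label. For LPS in shNT the lowest was 0.0598, and the numbers were not taken as pairs. The main fits, and those with 1 library left out, did not use the pairing, which entered only through the block.

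The genes and lists were chosen with earlier results of these data known. Named genes were all 10 members, both hairpin targets, the called list genes with the largest changes, and the genes nearest by correlation.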

Additional observations from a re-analysis of the deposited data

How the results depend on the processing

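The size factors of DESeq2 changed no call of any of the 120 log2 fold changes of the 10 genes. The count of 8 of 10 called with LPS was the same in shNT, shNR4A2 and shNR4A3 cells under each alternative, except that it was 9 in shNR4A3 without the filter on low counts and with 1 library left out (range 8 to 9, the added gene being NAB2 without library 2 of either shNR4A3 group).

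Counts between lines depended on the setting. With the replicate block, which leaves 2 residual degrees of freedom in place of 4, they were 5 of 10 for shNR4A2 against shNT without LPS and 3 with LPS, 2 for shNR4A3 against shNT without LPS and 4 with LPS, and 2 for shNR4A2 against shNR4A3 without LPS and 4 with LPS. The block changed no other call. Over all genes it raised the calls, for example from 362 to 3666 for shNR4A2 against shNR4A3 with LPS and from 1085 to 4385 for shNR4A2 against shNT with LPS. Without the filter the prior degrees of freedom were infinite in every comparison, so each gene's spread was that shared over genes. In these fits the counts were 3 for shNR4A2 against shNT with LPS, 2 and 3 for shNR4A3 against shNT without and with LPS, 1 and 2 for shNR4A2 against shNR4A3 without and with LPS, and 1, EGR3, for the difference of response of shNR4A3 against shNT. In the same order, the genes called over all genes were 1843 of 40305, 1467 of 37854, 1839 of 40278, 838 of 38285, 1102 of 39392 and 138 of 43900. DESeq2 called 2 for shNR4A3 against shNT with LPS and 1 for shNR4A2 against shNR4A3 without LPS, against 9.02% and 4.21% of genes. With all 18 libraries in 1 fit, which called 1346 and 879 of 16935 genes in the 2 comparisons that follow, 2 members were called for shNR4A2 against shNT without LPS. The 1 called for shNR4A3 against shNT without LPS was EGR2, higher, in place of EGR1, lower. EGR1 there was at adjusted p = 0.218.

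With 1 library left out, the counts ran from 0 to 1 for shNR4A2 against shNT without LPS, 1 to 1 with LPS, 0 to 2 for shNR4A3 against shNT without LPS, 0 to 3 with LPS, 0 to 1 for shNR4A2 against shNR4A3 without LPS and 0 to 0 with LPS. The cause of these changes was not tested. No called value changed sign under any alternative. Depth limits EGR2, EGR3, EGR4 and IER3 without LPS most, where a library held 6 to 49 counts.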
